A study of Mus musculus with 10 samples.

Results

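The response of cultured mouse spleen T cells to N-acetylcysteine (NAC) is described for 4 of the 10 libraries of the series: control 1, control 2, NAC 1 and NAC 2. These were chosen by their read counts, as the libraries in which Cd4, which marks helper T cells, exceeds 400 CPM (reads of a gene scaled to a common library total, here the column total) besides Cd8a, which encodes the CD8 alpha chain. All cells are labelled as wild-type CD8+ T cells. The series selected them from the spleen and kept them for 5 days in normal medium or in medium with 10 mM NAC before bulk RNA sequencing. Each side has 2 libraries, and no strain, age or sex of the mice is given in the labels used here. Whether replicate libraries stand for different mice or culture wells is not stated in the labels; each p-value below therefore reflects library-to-library spread alone, which could be technical.

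The 4 libraries hold 14.65 to 17.71 M reads assigned to genes. By column total, Cd4 was at 467 and 467 CPM in control and at 481 and 545 CPM with NAC, so that control 1 is the member just inside the threshold. The highest library outside it, NAC 4, had 2.80 CPM. Cd8a was at 201 and 214 CPM in control and at 236 and 283 CPM with NAC. Both genes served to choose the libraries and are given as a description. The label of CD8+ T cells thus stands beside transcripts of both co-receptors: per gene length, Cd4 was at 116 and 116 FPKM (reads scaled to gene length and library total, as deposited) in control, and Cd8a at 55.4 and 58.8 FPKM. The cultures are called the Cd4-positive cultures here. In bulk RNA, fewer cells of a type and less RNA per cell cannot be told apart, and this holds for every gene below.

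NAC is a thiol that enters cells, supplies cysteine for the synthesis of glutathione and can reduce disulfide bonds. T cells that see antigen through the T cell receptor switch on cytokines, chemokines, glucose uptake and ribosome production within the activation programme, and reactive oxygen takes part in that signalling. The series title concerns cells that carry TCF1, the product of Tcf7, and PD-1, the product of Pdcd1, which mark a stem-like state of CD8 T cells.

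Most of the difference among the 4 libraries ran between NAC and control. Of 11734 genes tested, 5139 (43.8%) passed an adjusted p of 0.05 in edgeR's quasi-likelihood test. Of these, 2776 (23.7% of those tested) were higher and 2363 (20.1%) lower with NAC. The shares of 43.8%, 23.7% and 20.1% are the background of every list count below. At least 2-fold changes were called upwards in 1325 genes (11.3%) and downwards in 606 (5.16%). Both NAC values lay on one side of both control values in 8778 genes (74.8%). Scaling by upper quartile factors in place of TMM moved the median log2 fold change of all genes from 0.03 to 0.15, and then 3419 genes were higher and 1722 lower. A test against a fold of 1.5 called 1115 genes higher and 600 lower. The first principal component, with 85.52% of the variance, parted NAC from control. The second, with 9.515%, parted NAC 1 from NAC 2, so that the NAC libraries differed more from each other than the controls did. Across genes, log2 CPM correlated with r = 0.99334 between the controls and r = 0.98529 between the NAC libraries; genes are not independent replicates.

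**Figure D1:**
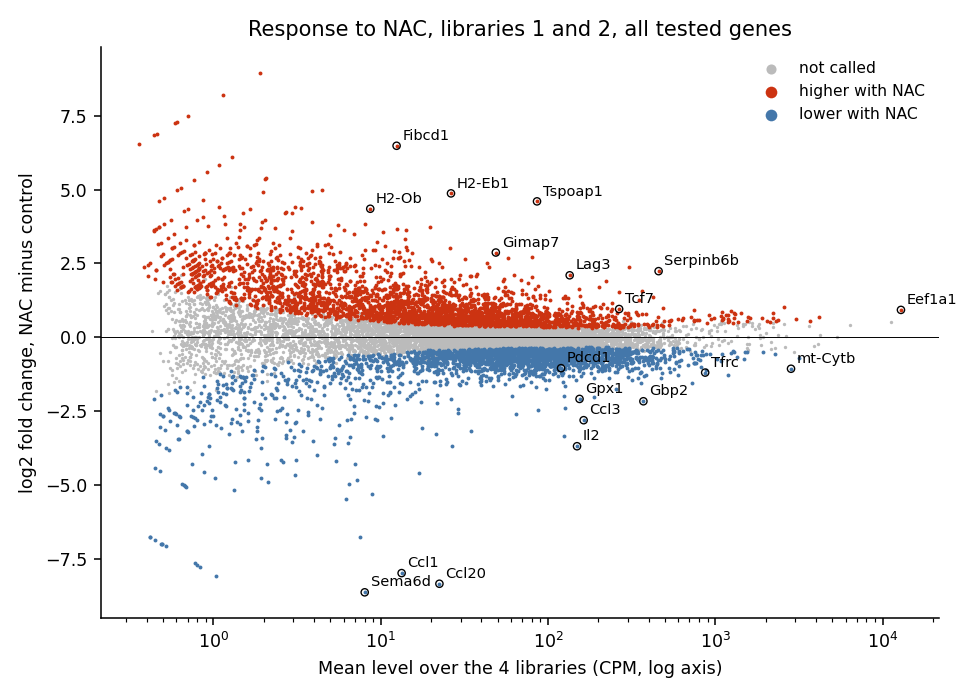
Each point is 1 of 11734 tested genes, with its mean CPM over the 4 libraries on a log axis and its fitted log2 fold change, NAC minus control, on the vertical axis. Red genes were called higher and blue genes lower at an adjusted p of 0.05; the named outliers include H2-Eb1 (4.87) at the top and Ccl20 (-8.33) at the bottom.

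The changes moved with gene length. The tested genes were divided by their length in the table into 4 groups of nearly equal size. In the shortest (243 to 2869 bases), the median log2 fold change was 0.25, and 31.7% were called higher and 10.5% lower. In the longest (6862 bases and more) it was -0.23, with 14.3% higher and 33% lower. The trend was steeper in NAC 1, whose medians against the control mean ran from 0.36 to -0.33, than in NAC 2, where they ran from 0.11 to -0.12. The 2 controls differed from each other by medians of 0.01 to -0.02. Ribosomal protein genes, looked up after their values were seen, are short (median length 1736 bases): 38 of 86 rose, 3 fell and the median log2 fold change was 0.52. Their summed level was 80017 and 79704 CPM in control, 131560 CPM in NAC 1 and 96836 CPM in NAC 2. With the length trend removed from each gene, their median was 0.27. Over all genes that refit called 5793 and kept 4643 of the 5139 calls, and it is given below where it ended the call of a gene named here.

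**Figure D2:**
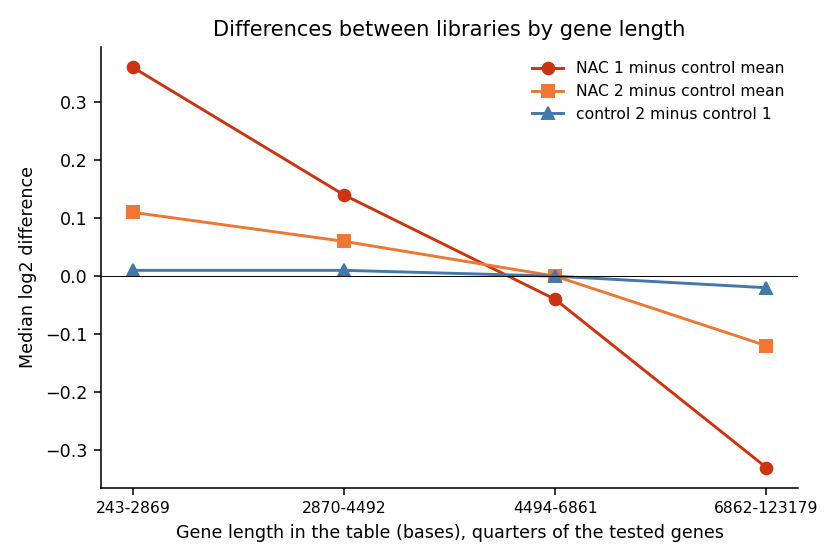
Median log2 difference (CPM with a pseudocount of 0.5) in 4 groups of the tested genes by length, for each NAC library against the control mean and for control 2 against control 1. Both NAC lines fall from the shortest to the longest genes, NAC 1 from 0.36 to -0.33, while the control line stays between 0.01 and -0.02.

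The genes of the MHC class II pathway rose, except for the chaperone of the pathway. Class II molecules present peptides to CD4 T cells and are made chiefly by B cells, dendritic cells and macrophages; their promoters share upstream boxes, of which the Y box binds the factor NF-Y. Of 9 members tested out of 10, 8 rose and 1 fell, with a median log2 fold change of 2.44 against 0.03 over all genes. These counts were the same without each library in turn and with the length trend removed. The promoters of 4 risers are shown because these genes moved together. They are the 150 bases before the start in RefSeq (GRCm38.p6), with matches to the Y box core CTGATTGG in capitals:
H2-Eb1, chr17:34305717-34305866, plus strand: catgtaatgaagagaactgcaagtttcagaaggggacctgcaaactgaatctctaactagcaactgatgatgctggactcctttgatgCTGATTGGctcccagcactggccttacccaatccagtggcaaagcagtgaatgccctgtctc
H2-Ob, chr17:34238755-34238904, plus strand: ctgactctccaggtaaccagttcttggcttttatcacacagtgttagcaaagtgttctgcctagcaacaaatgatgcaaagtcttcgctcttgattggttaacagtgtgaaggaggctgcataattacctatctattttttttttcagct
H2-Oa, chr17:34092229-34092378, plus strand: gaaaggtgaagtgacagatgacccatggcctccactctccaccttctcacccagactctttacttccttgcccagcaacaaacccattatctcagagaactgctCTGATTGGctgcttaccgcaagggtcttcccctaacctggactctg
H2-Aa, chr17:34287824-34287973, minus strand: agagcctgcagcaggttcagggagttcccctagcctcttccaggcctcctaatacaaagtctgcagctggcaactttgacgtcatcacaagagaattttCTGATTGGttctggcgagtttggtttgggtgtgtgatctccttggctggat
The core was sought on both strands from 250 bases before the start. It begins at position -62 from the start in H2-Eb1, at -46 in H2-Oa and at -51 in H2-Aa, and 3 of 7 members with a promoter in the table hold it. Of all 32851 promoters 3.83% hold it. H2-Ob has no match to these letters in the window.

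H2-Eb1, the beta chain of the class II molecule I-E, was at 1.55 and 1.91 CPM (TMM-normalized, as are all CPM below) in control and at 49.3 and 52.4 CPM with NAC. Its log2 fold change was 4.87 ± 0.19 (SE, n = 2 per group; adjusted p = 1.01e-05 in edgeR), and the gene is the second in size of rise among those named. Per length it reached 24.9 and 28.3 FPKM with NAC, from 0.784 and 0.973 FPKM. H2-Ob, the beta chain of H2-O, which restrains peptide loading, went from 0.805 and 0.802 to 14.5 and 18.5 CPM (log2 4.35 ± 0.27, adjusted p = 4.70e-05). H2-Oa, its partner chain, went from 2.19 and 1.67 to 14.3 and 12.6 CPM. The I-A chains were also higher in both NAC libraries. H2-Ab1 went from 2.65 and 3.15 to 14.5 and 14.6 CPM, and H2-Aa from 0.748 and 1.3 to 6.33 and 4.75 CPM. H2-DMa, a chain of the peptide exchange factor, went from 17.5 and 15.8 to 55 and 47.7 CPM. Its partners H2-DMb1 and H2-DMb2 rose by log2 2.51 and 2.28; they are close copies, and reads may be shared between them.

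Cd74, the invariant chain that guides class II molecules to the endosome, went the other way. It was at 69.4 and 66.1 CPM in control and at 38.5 and 38.4 CPM with NAC, a log2 fold change of -0.82 ± 0.13 (adjusted p = 0.0017). Ciita, the activator of class II transcription, was not tested, with 0.288 and 0.37 CPM in control and 0 and 0.065 CPM with NAC. Among 8 B cell markers, summed at 2.99 and 3.64 CPM in control and 12.2 and 11.1 CPM with NAC, Cd79b was the 1 riser of 2 tested, from 1.55 and 2.71 to 11.1 and 9.04 CPM. The other, Cd79a, its partner in the B cell receptor, was at 0.575 and 0.308 CPM in control and at 0.791 and 1.56 CPM with NAC (adjusted p = 0.0758), and was called higher without NAC 1 (0.0184). Pax5, the B cell lineage factor, was at 0 in all 4 libraries, and Ms4a1, the CD20 gene, was at 0.23 and 0.185 CPM in control and at 0 in both NAC libraries. Of 13 myeloid and dendritic markers, summed at 7.48 and 7.71 CPM in control and 11.7 and 12.7 CPM with NAC, 12 stayed below 1 CPM in every library and 5 were at 0 in all of them, Csf1r, Clec9a and Siglech included. Cd68, a lysosomal protein also found outside that lineage, held most of the sum (5.92 and 6.29 CPM in control, 10.5 and 11.4 CPM with NAC). Its call ended without control 1 (adjusted p = 0.0879) or control 2 (0.0516). Adgre1, the macrophage marker F4/80, fell from 28 pooled reads to 2 (ratio 12.7, counting interval 3.21 to 110). Itgax, the CD11c gene, was at 0 and 0 CPM in control and at 0.527 and 0.195 CPM with NAC. The part of such cells in the class II rise was not tested.

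**Figure D3:**
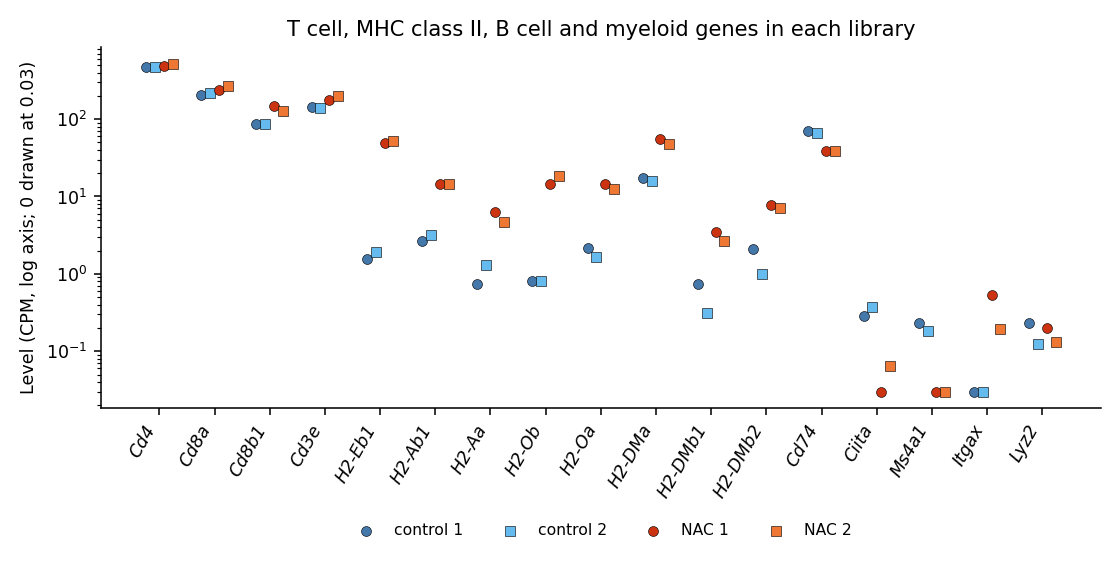
Level of T cell, MHC class II, B cell and myeloid genes in each of the 4 libraries, in CPM on a log axis, with values of 0 drawn at 0.03. The NAC points of 8 class II genes lie above both control points, from H2-Eb1 (49.3 and 52.4 CPM) to H2-DMb1 (3.49 and 2.67 CPM), those of Cd74 lie below, and Ms4a1, Itgax and Lyz2 stay under 1 CPM.

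Single markers of the helper and CD8 lineages are given without a list count, since Cd4 and Cd8a chose the libraries. Cd40lg, the CD40 ligand of activated helper cells, fell from 99.4 and 110 to 53.8 and 64 CPM (log2 -0.83 ± 0.14, adjusted p = 0.00228). Zbtb7b, the helper lineage factor, was at 56.8 and 67.2 CPM in control and 64.4 and 71.7 CPM with NAC, with overlap. Cd8b1, the other CD8 chain, went from 85.3 and 85.7 to 149 and 127 CPM, and Nkg7, a cytotoxic granule protein, from 153 and 147 to 309 and 293 CPM. Without control 1 or control 2, Cd8b1 no longer passed (adjusted p = 0.0633 and 0.0582), whereas Nkg7 kept its call. Runx3, the CD8 lineage factor, overlapped between the groups. Crtam, also listed for the CD8 lineage, fell from 87.5 and 86 to 72.4 and 58 CPM (log2 -0.41 ± 0.14, adjusted p = 0.0456 in edgeR). With upper quartile factors or with library size alone Crtam did not pass (adjusted p = 0.133 and 0.0563 in edgeR). Its call also ended without control 1 or control 2. Eomes, Itgae and Ccl5 of the same lineage list did not pass with all libraries. In the regulatory T cell list 1 of 5 genes rose and 3 fell; without either control, 2 fell and none rose. Its factor Foxp3 was low and fell from 4.6 and 4.32 to 1.32 and 1.56 CPM, and Ikzf4, another factor of that programme, fell from 30.6 and 30.4 to 11.4 and 15 CPM. Ikzf2, the Helios gene, rose from 9.66 and 9.87 to 12.8 and 20.3 CPM (adjusted p = 0.0283), but its call ended without control 1 (0.0827), control 2 (0.065) or NAC 2 (0.12). Lrrc32, which tethers the cytokine TGF-beta at the surface, overlapped between the groups. Gata3, the type 2 helper factor, rose from 15.6 and 13.1 to 58.6 and 42.3 CPM. Il1rl1, the interleukin 33 receptor, fell from 10.9 and 8.64 to 0.857 and 0.976 CPM.

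All 5 tested genes of the type 17 helper list fell, with a median log2 fold change of -2.41; 6 further members stayed below 1 CPM in every library. Ccr6, a chemokine receptor of such cells, went from 47.5 and 49.9 to 5.93 and 12.4 CPM, and Ccl20, the ligand of that receptor, from 42.4 and 47 to 0.0659 and 0.195 CPM. Receptor and ligand were thus both lower in each NAC library than in each control. Rora, a nuclear receptor, fell by 1.83 on the log2 scale. Il17f, a cytokine of this programme, was at 0.92 and 2.16 CPM in control and at 0.593 and 0.13 CPM with NAC; its call ended without control 2 (adjusted p = 0.293) or NAC 2 (0.0591). Il17a and Il22 had at most 0.0575 CPM in any library and were not tested.

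Most chemokine genes fell. Of 10 tested, 8 fell and none rose, with a median log2 fold change of -2.83 against 0.03 over all genes; it was -2.23 without NAC 2. Ccl20 fell by 8.33 ± 0.31 on the log2 scale (adjusted p = 1.01e-05), from 738 and 762 reads to 1 and 3. Ccl1, the ligand of CCR8, had 420 and 468 reads in control (24.2 and 28.9 CPM) and 2 and 1 reads with NAC. The ratio of its pooled reads was 269, with a counting interval of 91.8 to 1308 (exact, 95%), which covers counting error only. Both genes were thus near absence in NAC 1 and NAC 2. Ccl3 and Ccl4, inflammatory chemokines, went from 280 and 291 to 47.6 and 34.3 CPM and from 156 and 138 to 32.3 and 21.8 CPM. Ccl22, a ligand of CCR4, went from 12.3 and 11.7 to 1.84 and 0.455 CPM. The low genes Ccl9 and Cxcl10 fell as well, Cxcl10 from 38 pooled reads to 3 (ratio 11.5, interval 3.66 to 58.3). Xcl1, which attracts cross-presenting dendritic cells, went from 55.8 and 38.3 to 34.7 and 24.5 CPM; it did not pass without control 1 (adjusted p = 0.358) or with upper quartile factors (0.0811). Ccl5 was at 3.05 and 2.9 CPM in control and 2.37 and 2.41 CPM with NAC (adjusted p = 0.409). The AP-1 letters TGANTCA were found in the promoters of Ccl9 and Cxcl10, 2 of 10 with a promoter in the table, against 6.75% of all promoters.

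**Figure D4:**
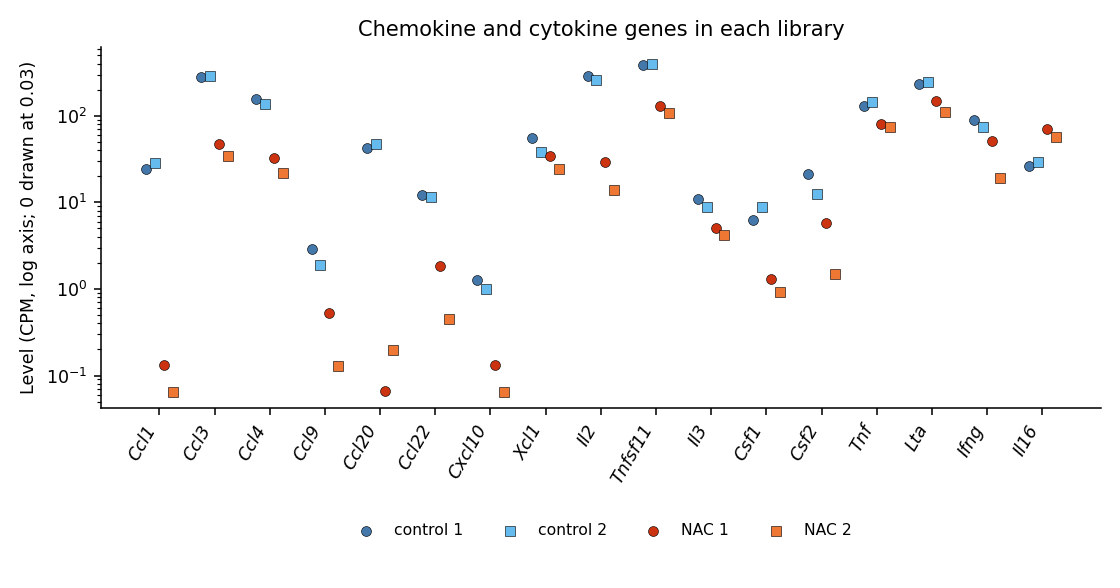
Level of chemokine and cytokine genes in each of the 4 libraries, in CPM on a log axis. The NAC points lie below both control points for every gene drawn except Il16, whose NAC points (69.8 and 56.5 CPM) lie above; Ccl1 and Ccl20 drop from 24.2 CPM or more to 0.195 CPM or less.

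Cytokine genes followed the same direction: 12 of 20 tested fell and 1 rose, with a median log2 fold change of -0.84. Il2, the main growth factor of T cells, went from 292 and 261 to 29.1 and 14 CPM (log2 -3.68 ± 0.29, adjusted p = 9.85e-05). Tnfsf11, which encodes RANKL, went from 387 and 400 to 129 and 107 CPM. Csf1 and Csf2, growth factors of myeloid cells, fell (log2 -2.76 and -2.21). Tnf, an inflammatory cytokine, went from 130 and 145 to 81.6 and 74.8 CPM, and its relative Lta from 231 and 245 to 150 and 112 CPM. Il3 and Areg fell (log2 -1.11 and -2.56). Ifng, interferon gamma, was at 89.4 and 74.5 CPM in control and at 50.9 and 19.1 CPM with NAC, without overlap but with a wide gap between the NAC libraries (log2 -1.23 ± 0.36, adjusted p = 0.0227). DESeq2's Wald test did not call it (adjusted p = 0.116). Il10, an inhibitory cytokine, had 29 pooled reads in control and 1 with NAC. Il16, a ligand of CD4, was the one riser, from 26.6 and 29.1 to 69.8 and 56.5 CPM. Il4 and Il13 did not pass; Il13 was at 6.52 CPM in NAC 1 and at 0.976 CPM in NAC 2.

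On the receiving side, Il2ra, the high-affinity chain of the interleukin 2 receptor, fell from 1130 and 1069 to 540 and 564 CPM (log2 -0.99 ± 0.14, adjusted p = 9.93e-04). Socs2, a feedback inhibitor under STAT5 control, fell from 93.1 and 102 to 25.8 and 24.1 CPM. Il7r, the receptor for interleukin 7 kept by resting and memory cells, rose from 39.4 and 38.9 to 92 and 124 CPM. In the list of interleukin 2 and related signalling as a whole 4 of 19 rose and 6 fell. Its called share was 52.6%, against 43.8% of all genes, of which 23.7% were higher and 20.1% lower. Fewer of the list passed without control 1 or control 2. Of 11 chemokine receptors 4 rose and 4 fell, a called share of 72.7%. Fewer of these receptors passed without control 1. Cxcr5, the receptor that leads to B cell follicles, rose from 7.94 and 5.43 to 38.5 and 37.8 CPM, and Cxcr4 from 2.36 and 2.22 to 8.43 and 10.1 CPM. Ccr4 fell from 86.7 and 84.4 to 44.9 and 29.3 CPM.

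Transcription factors that T cell receptor signalling induces passed only downwards: 11 of 22 fell, none rose, and the median log2 fold change was -0.52. Over all genes tested 20.1% were lower and 23.7% higher. Irf4, a dose-sensitive reporter of receptor signal, went from 627 and 640 to 301 and 310 CPM (log2 -1.05 ± 0.13, adjusted p = 5.59e-04). Nr4a2, an orphan nuclear receptor, went from 143 and 124 to 49.9 and 63.3 CPM, and Egr3 from 179 and 209 to 100 and 112 CPM. The NF-kappa B genes Nfkb1 and Rel fell (log2 -0.87 and -0.93), and the AP-1 genes Fosb and Batf3 fell as well (log2 -2.07 and -2.29). Myc, a driver of growth, was at 378 and 371 CPM in control and 380 and 345 CPM with NAC, with overlap. Leaving out NAC 1 brought 3 members up and leaving out NAC 2 brought 2, with 12 and 16 down. Of 12 MAP kinase phosphatase and Sprouty genes, which dampen ERK signalling, 6 fell and 2 rose. Their called share was 66.7% against 43.8% of all genes, and fewer of them passed without control 2. Dusp1 fell from 26.2 and 25.1 to 12.4 and 13.1 CPM, while Dusp10 rose from 12 and 12.3 to 28.8 and 28.7 CPM.

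Of 21 genes of the T cell receptor complex and its proximal signalling 6 rose and 3 fell (2 and 1 without either control), 42.9% in all and so near the 43.8% of all genes. Ptpn22, an inhibitory phosphatase, rose from 126 and 121 to 226 and 274 CPM, and Cd6, a scavenger receptor that tunes the signal, fell from 523 and 529 to 287 and 265 CPM. Of 15 costimulatory genes 6 fell and 1 rose, a called share of 46.7% and so also near that of all genes. Fewer of them passed without control 1 or control 2. Tnfsf8, the CD30 ligand, fell from 144 and 156 to 37 and 53.5 CPM.

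Receptors of the killer lectin-like family were among the stronger rises. Of 7 tested members of the killer and NK receptor list, 5 rose and 1 fell, with a median log2 fold change of 1.54; without control 2, 3 rose and none fell. Klrd1, which encodes CD94, went from 2.88 and 3.7 to 23.7 and 26.9 CPM (log2 2.94 ± 0.20, adjusted p = 6.87e-05). Klrk1, the activating receptor NKG2D, went from 15.9 and 12.6 to 64.9 and 84 CPM, and Klrc1, the NKG2A partner of CD94, from 4.49 and 3.52 to 9.09 and 14.2 CPM. Klrc1 has close copies, and reads may be shared among them. The defining NK cell genes were at or near 0: Ncr1 had at most 0.0575 CPM and Klrb1c at most 0.13 CPM. Of the other called members, Cd160 lost its call without control 2 (adjusted p = 0.283), Cd244a without each of the 4 libraries (0.0825 to 0.269), and Cd226, which fell, without control 1 (0.143) or control 2 (0.152).

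Of 18 inhibitory receptor and exhaustion genes 7 rose and 5 fell, a called share of 66.7% against 43.8% of all genes, with a median log2 fold change of 0.34. Lag3, a receptor that binds MHC class II, went from 49.3 and 52.4 to 220 and 217 CPM (log2 2.10 ± 0.13, adjusted p = 3.58e-05), and Tigit, a receptor for nectins, from 27.7 and 29.2 to 84.7 and 81 CPM. Cd38, an ectoenzyme, rose from 4.83 and 6.91 to 14.1 and 17.4 CPM. Pdcd1, the PD-1 gene, went down, from 155 and 167 to 81 and 75.4 CPM (log2 -1.04 ± 0.13, adjusted p = 5.27e-04). Btla, a receptor for HVEM, fell from 393 and 413 to 205 and 235 CPM, and Vsir, the VISTA gene, by 0.77 on the log2 scale. PD-1 and BTLA transcripts thus fell where those of LAG-3 and TIGIT rose, and each of these calls held without each library in turn. Without control 2, 5 of the list rose and 3 fell. Havcr2, the TIM-3 gene, was low, at 3.16 and 1.97 CPM in control and 1.84 and 1.17 CPM with NAC (adjusted p = 0.143); without NAC 1 it was called lower (0.0349). Tox, which exhausted cells need, was at 39.6 and 46.5 CPM in control and 35.5 and 48.7 CPM with NAC, with overlap (adjusted p = 0.902), and was called lower without NAC 2 (log2 -0.32, adjusted p = 0.0137). Ctla4 also overlapped.

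Of 20 tested genes of naive and stem-like cells, 9 rose and 4 fell, where 23.7% of all genes were higher and 20.1% lower. Their called share was 65% against 43.8% of all genes. The median log2 fold change was 0.23, against 0.03 over all genes, and 0.30 without NAC 2. Without NAC 2 more of them passed in both directions. Tcf7, the TCF1 gene, went from 187 and 174 to 332 and 371 CPM (log2 0.96 ± 0.13, adjusted p = 7.69e-04) and kept its call without each library in turn. Dapl1 went from 36.9 and 28.1 to 102 and 80.9 CPM. The transcription factor Myb and the kinase gene Txk rose by 0.82 and 1.53. Slamf6, a surface receptor of stem-like cells, was at 177 and 183 CPM in control and 240 and 258 CPM with NAC (log2 0.47 ± 0.12, adjusted p = 0.0137). Its call ended without control 1 (adjusted p = 0.265) or control 2 (0.202). Not every gene of this kind rose. Bach2, a repressor that holds back effector differentiation, fell from 184 and 180 to 54.5 and 74.1 CPM, and Klf3 from 30.8 and 30.7 to 17.4 and 15.2 CPM. Foxp1, a factor of quiescence, fell by 0.73. Lef1, a partner of TCF1, was at 89.5 and 92.5 CPM in control and 111 and 100 CPM with NAC (adjusted p = 0.196) and was called only with the length trend removed (0.0188) or without NAC 2 (0.00668).

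Of 16 effector genes 3 rose and 5 fell, a called share of 50% against 43.8% of all genes. Gzmb, granzyme B, was at 1722 and 1377 CPM in control and at 1854 and 1305 CPM with NAC, so that the groups overlapped (log2 0.03 ± 0.20, adjusted p = 0.924). Its value followed the NAC library: it was called higher without NAC 2 (log2 0.21, adjusted p = 0.00569) and lower without NAC 1 (-0.25, adjusted p = 0.00113). Gzmc, granzyme C, fell from 12 and 9.87 to 1.71 and 1.43 CPM, and its reads may be shared with close granzyme copies. Serpinb6b, a serine protease inhibitor, rose from 179 and 141 to 778 and 734 CPM (log2 2.24 ± 0.16, adjusted p = 7.17e-05). Ctsw, a protease of cytotoxic cells, rose by 0.82. Id2 and Zeb2, factors of effector cells, fell (log2 -1.14 and -1.36). Prf1, perforin, was at 27 and 24.7 CPM in control and 28.4 and 31.6 CPM with NAC, not a call. Without NAC 1 the list had 4 genes higher and 10 lower, and without NAC 2 it had 6 and 8.

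GTPases of the GIMAP family, which support lymphocyte survival, passed upwards in 5 of 8 cases and never downwards. Over all genes 23.7% were higher and 20.1% lower. Gimap7 went from 11.8 and 11.5 to 86.7 and 84.9 CPM (log2 2.87 ± 0.14, adjusted p = 2.13e-05), and Gimap6 from 141 and 132 to 388 and 399 CPM. Gimap3 and Gimap4 went from 225 and 245 to 571 and 644 CPM and from 312 and 331 to 680 and 610 CPM. The replicates of each gene lay close together beside these gaps. Gimap5 was at 64.6 and 65.5 CPM and at 93.6 and 84.9 CPM, and its call ended without control 1 (adjusted p = 0.266) or control 2 (0.236). These genes are close copies of one another. Of adhesion and homing genes 9 of 19 rose and 6 fell, a called share of 78.9% against 43.8% of all genes. Itgb3 and Itgb7, integrin beta chains, rose from 25.5 and 22.8 to 68.5 and 84.4 CPM and from 83.2 and 98.1 to 197 and 179 CPM. Itgb1, the chain that binds matrix proteins, fell from 557 and 509 to 329 and 286 CPM. Without control 1, 2 genes of this list fell, and without control 2, 4 fell. In the gelsolin family, Gsn rose from 5.35 and 6.17 to 52.8 and 40 CPM and Scin, its actin-severing relative, fell from 13.1 and 11 to 0.198 and 0.325 CPM.

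Glutathione and cysteine genes, the route by which NAC is used, had 9 of 23 members higher and 3 lower, where 23.7% of all genes were higher and 20.1% lower. Mgst2, a membrane-bound glutathione transferase, went from 10.4 and 13 to 39.8 and 47.1 CPM (log2 1.89 ± 0.18, adjusted p = 2.11e-04). Mpst, which transfers sulfur from a cysteine product, went from 18.3 and 22.8 to 55.8 and 45.8 CPM, and Ethe1, which oxidizes sulfide products, from 4.89 and 4.87 to 12.3 and 9.04 CPM. Gstp1, a soluble transferase, rose by 0.98. Gclc, the catalytic subunit of the first enzyme of glutathione synthesis, fell from 74.1 and 74.5 to 47.6 and 50.7 CPM (adjusted p = 0.00632), and did not pass without control 1 (0.0949) or control 2 (0.0967). Gclm, its modifier subunit, did not pass (45.2 and 43.9 CPM, and 40.5 and 36 CPM), except without NAC 1 (0.0169). Slc7a11, the cystine transporter, was at 2.3 and 2.1 CPM in control and 1.32 and 1.3 CPM with NAC, not a call. Without control 1 no gene of the list fell, and without control 2 only 1 did.

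NRF2, which thiol-reactive stress sets free, drives many antioxidant genes through the antioxidant response element. The promoters of 2 of the 4 list members found to hold the core TGACNNNGC of that element are shown as examples. They are the 150 bases before the start (RefSeq, GRCm38.p6). Capitals mark the core, which is on the opposite strand and so reads as its reverse complement:
Gclm, chr3:122245407-122245556, plus strand: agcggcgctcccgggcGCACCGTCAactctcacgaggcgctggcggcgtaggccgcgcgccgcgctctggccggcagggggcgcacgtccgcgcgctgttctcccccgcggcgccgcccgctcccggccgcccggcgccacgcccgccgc
Txnrd1, chr10:82859056-82859205, plus strand: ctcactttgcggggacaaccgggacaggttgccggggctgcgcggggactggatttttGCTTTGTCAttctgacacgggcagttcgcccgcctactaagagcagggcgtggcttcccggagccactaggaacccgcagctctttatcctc
The core, sought on both strands, was found in 4 of 18 members with a promoter in the table, and 10.2% of all promoters hold it. Prdx1 and G6pdx, not shown, hold it at -133 and -57 and did not pass with all libraries (log2 -0.07 and -0.14). Txnrd1, thioredoxin reductase, was at 411 and 412 CPM in control and at 268 and 258 CPM with NAC (log2 -0.65, adjusted p = 0.00349); its call ended without control 1 (0.0682) or control 2 (0.067). In the NRF2 list as a whole 5 of 21 rose and 6 fell, near the shares over all genes (23.7% and 20.1%). Without control 1, 2 rose and 2 fell, and without control 2, 3 rose and 2 fell. Srxn1, sulfiredoxin, fell from 22.8 and 23.6 to 12.3 and 7.61 CPM, and Pgd, an enzyme of the pentose phosphate path, from 244 and 233 to 151 and 123 CPM. Blvrb, biliverdin reductase B, rose from 1.9 and 2.47 to 10.7 and 12.5 CPM, and Gsta4, a transferase for lipid aldehydes, from 0.518 and 0.123 to 5.01 and 3.64 CPM. The common reporters Nqo1 and Hmox1 did not pass: Nqo1 was at 5.12 and 6.05 CPM in control and 7.25 and 7.09 CPM with NAC, and Hmox1 overlapped.

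Among peroxidases, thioredoxins and related genes 6 of 22 rose and 5 fell, near the shares over all genes (23.7% and 20.1%). Gpx1, the main cytosolic glutathione peroxidase, fell from 246 and 253 to 65.2 and 52.8 CPM (log2 -2.08 ± 0.14, adjusted p = 6.68e-05). Selenoh and Selenow, also selenoproteins, fell from 108 and 118 to 63 and 49.7 CPM and from 74.4 and 72.7 to 39.4 and 22.9 CPM. Gpx4, the selenoprotein that repairs lipid peroxides, rose from 87.2 and 85.6 to 171 and 127 CPM. Selenoprotein genes therefore did not share a direction. Without control 1, 1 gene of the list rose and 4 fell; without control 2 it was 2 and 4, and without NAC 2 it was 14 and 6. Metal handling genes passed mostly downwards, with 10 of 18 lower and 1 higher (5 and 0 without control 1). Tfrc, the transferrin receptor, fell from 1221 and 1195 to 503 and 559 CPM (log2 -1.19 ± 0.14, adjusted p = 5.52e-04). The zinc importers Slc39a8 and Slc39a14 fell (log2 -1.11 and -0.87).

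Genes of the ATF4 response to amino acid shortage rose in 10 of 28 cases and fell in 4. Their called share was 50%, against 43.8% of all genes. Pck2, a mitochondrial enzyme of the path from amino acids to sugar, went from 32.4 and 30.9 to 147 and 112 CPM (log2 2.03 ± 0.16, adjusted p = 9.85e-05). Asns, asparagine synthetase, went from 78.2 and 70.8 to 263 and 198 CPM, and Gpt2 and Psph rose by 1.36 and 0.94. Atf3, a stress factor, fell from 28.4 and 22.1 to 8.57 and 5.33 CPM, and Slc7a1, the arginine transporter, from 390 and 378 to 188 and 235 CPM. Synthesis genes are thus among the risers and a transporter among the falls. Without NAC 1 the list had 10 higher and 8 lower, without NAC 2 it had 16 and 6, and without control 2 it had 7 and 2. Unfolded protein response genes fell in 9 of 23 cases and rose in 2, a called share of 47.8% against 43.8% of all genes. Far fewer of them fell without control 1 or control 2. Ero1b, an oxidase that makes disulfide bonds, rose from 8.8 and 8.88 to 16.4 and 17.9 CPM, while its relative Ero1a fell from 169 and 159 to 101 and 105 CPM; the call of Ero1a ended without control 1 (adjusted p = 0.0713). Heat shock and chaperonin genes were at 2 of 22 higher and 5 lower, a called share of 31.8% and so under that of all genes. Fewer of them passed without control 1 or control 2. Hsph1, a co-chaperone, fell from 276 and 270 to 158 and 135 CPM.

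Glycolysis genes fell in 11 of 22 cases and rose in 5, with a median log2 fold change of -0.43. Their called share was 72.7% against 43.8% of all genes, of which 20.1% were lower and 23.7% higher. Hk2, a hexokinase of activated cells, went from 218 and 208 to 79.3 and 78.8 CPM (log2 -1.43 ± 0.12, adjusted p = 1.25e-04), and Slc2a1, the glucose transporter GLUT1, from 109 and 108 to 46.6 and 43.1 CPM. Pfkl, the liver form of phosphofructokinase, fell by 0.84. The muscle form Pfkm rose from 32.7 and 32.3 to 70 and 73.3 CPM, Eno3 from 108 and 100 to 232 and 209 CPM, and Aldoc from 3.97 and 4.32 to 16.2 and 16.8 CPM. Some isoforms thus rose as others fell. Slc2a3, the transporter GLUT3, rose from 48 and 50.3 to 79.9 and 97.4 CPM. Without control 1 or control 2, 5 genes fell and 4 rose. Of 15 other targets of the hypoxia factor HIF-1, 9 fell and 4 rose, a called share of 86.7%. Fewer of these targets passed without control 1 or control 2. Ak4, an adenylate kinase, fell from 43.7 and 41.5 to 11.5 and 8.72 CPM, and Bnip3, a mitophagy receptor, from 22.5 and 17.5 to 5.6 and 5.66 CPM. Mxi1, a MYC antagonist, rose from 13.7 and 12.1 to 33 and 33.8 CPM. In sterol and fatty acid synthesis 7 of 25 rose and 5 fell, with a median log2 fold change of -0.02. The called share was 48%, near the 43.8% of all genes. Mvd of the sterol path rose from 34.4 and 36.4 to 82.8 and 73 CPM, and Fasn, fatty acid synthase, fell from 905 and 886 to 445 and 496 CPM. In that list 4 rose and 2 fell without control 1, and 3 rose and 4 fell without control 2.

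Ribosome biogenesis genes fell in 13 of 18 cases and none rose, with a median log2 fold change of -0.67; without control 1 or control 2, 8 fell. Polr1b, a subunit of RNA polymerase I, went from 194 and 190 to 99 and 78.7 CPM (log2 -1.11 ± 0.14, adjusted p = 7.21e-04). Dkc1, which modifies ribosomal RNA, went from 383 and 356 to 201 and 174 CPM, and Gnl3 and Polr1a fell (log2 -1.07 and -0.86). The median was -0.66 with the length trend removed. Among the most abundant genes that fell at least 1.5-fold, Eif4g2, a translation factor, went from 1724 and 1649 to 722 and 691 CPM, and mt-Cytb, a mitochondrial subunit of respiratory complex III, from 3916 and 3745 to 1874 and 1802 CPM. Of 12 tested mitochondrially encoded genes 3 fell, 1 rose and 8 were not called. With the length trend removed 7 fell and 0 rose. The summed level of the list was 21161 and 20861 CPM in control and 20695 and 21937 CPM with NAC. Odc1, the first enzyme of polyamine synthesis, went from 1424 and 1324 to 868 and 700 CPM, and its call ended without control 1 (adjusted p = 0.0819). Ncl, nucleolin, was at 3977 and 3819 CPM and at 2830 and 2044 CPM; its call ended without control 1 (0.236), without control 2 (0.183) and with the length trend removed (0.121). Eef1a1, the elongation factor and the most abundant riser, was at 8795 and 8926 CPM in control and at 17442 and 16326 CPM with NAC (log2 0.93 ± 0.19, adjusted p = 0.00536). Its call ended without control 1 (0.227) or control 2 (0.207), and processed copies of it in the genome can share its reads.

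Among cell cycle genes, of 20 mitosis genes 7 rose and none fell, with a median log2 fold change of 0.16. The called share was 35%, under the 43.8% of all genes. Far fewer mitosis genes rose without control 1 or control 2, and without NAC 2 they passed in both directions. Ccnb2, cyclin B2, went from 91.9 and 101 to 184 and 177 CPM (log2 0.90 ± 0.12, adjusted p = 9.02e-04). Of 26 replication genes 3 rose and 4 fell, a called share of 26.9% against 43.8% of all genes. Ccne2, cyclin E2, fell from 63.8 and 52.9 to 21.7 and 19.2 CPM and Tyms, thymidylate synthase, from 132 and 130 to 76.7 and 63.3 CPM. Without NAC 1 the replication list had 5 higher and 13 lower, and without NAC 2 it had 9 and 11. Ccnd2, a cyclin D, fell from 867 and 820 to 298 and 395 CPM, and Cdkn2d, an inhibitor of its kinase partners, rose from 31.5 and 35.7 to 74.1 and 63.2 CPM. In the BCL2 family Bmf, a killer protein, rose from 2.01 and 1.73 to 5.93 and 9.95 CPM. Sesn1, a p53 target that restrains mTOR, rose from 23.9 and 24.6 to 58.2 and 61.6 CPM.

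Of 19 interferon-stimulated genes 6 rose and 4 fell (3 and 2 without control 2), a called share of 52.6% against 43.8% of all genes. Ly6e, a surface protein that limits virus entry, rose from 186 and 180 to 588 and 506 CPM (log2 1.58 ± 0.14, adjusted p = 1.31e-04). Gbp2, a guanylate-binding protein that interferon gamma induces, fell from 595 and 620 to 142 and 129 CPM (log2 -2.16 ± 0.13, adjusted p = 4.02e-05), and Ifih1, the RNA sensor MDA5, from 124 and 135 to 51.7 and 58.9 CPM. In the MHC class I pathway 4 of 11 rose and 2 fell, a called share of 54.5%. Fewer passed without control 1 or control 2. Psmb9, an immunoproteasome subunit, rose from 149 and 153 to 271 and 243 CPM, and Erap1, which trims peptides, fell from 229 and 222 to 111 and 124 CPM. Dnmt3a, a DNA methyltransferase, fell from 395 and 401 to 168 and 220 CPM.

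**Figure D5:**
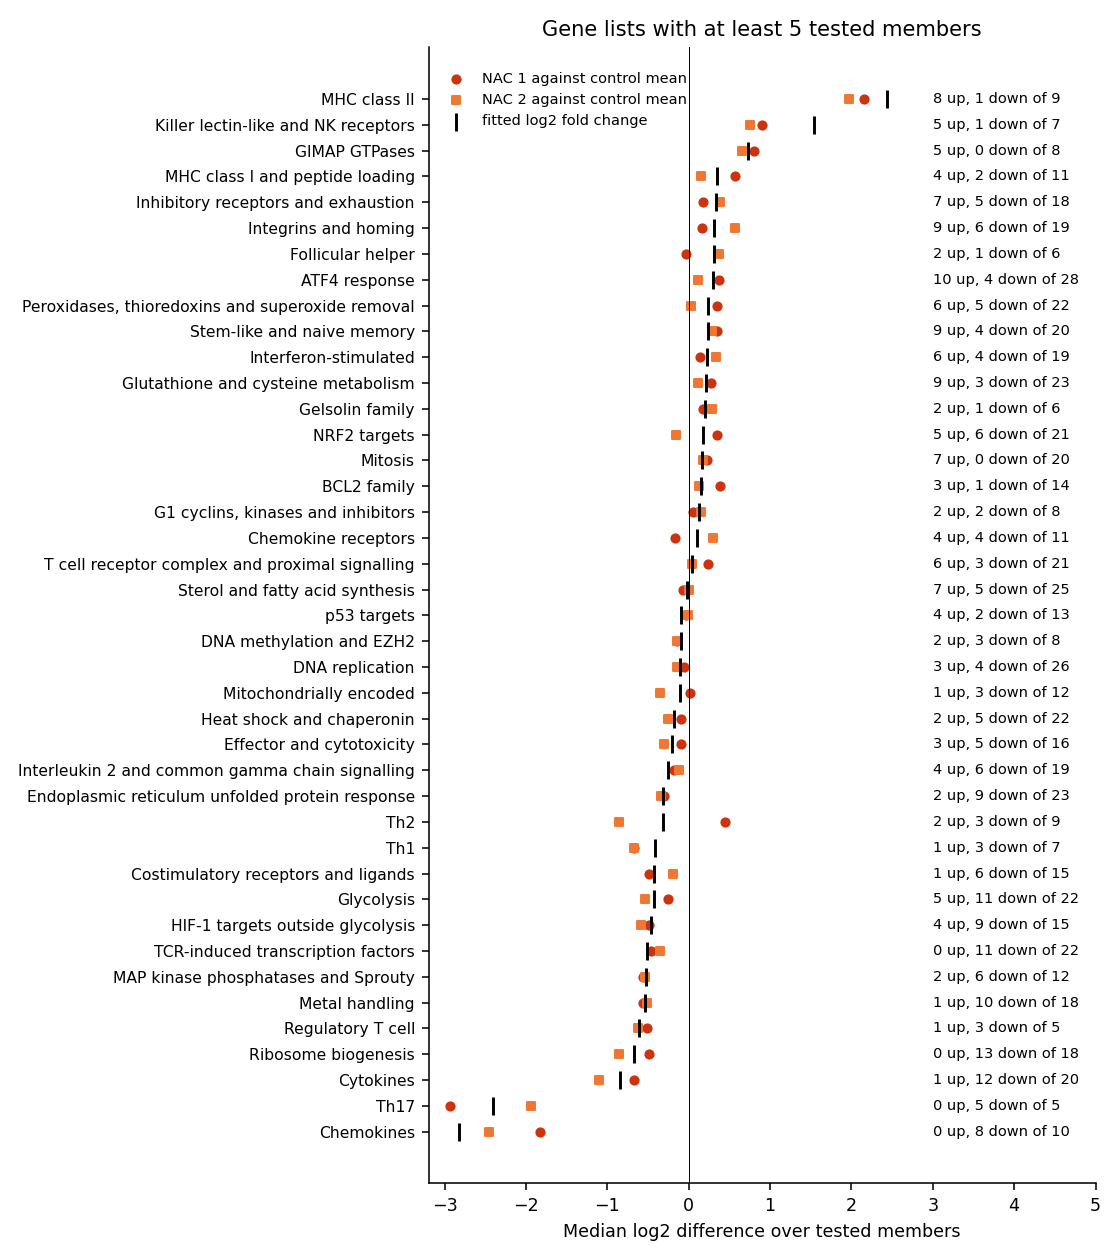
Median log2 difference over the tested members of each gene list with at least 5 such members: fitted (bar), and for NAC 1 (circle) and NAC 2 (square) each against the control mean, with the numbers of members called up and down. MHC class II (2.44) stands at the top and chemokines (-2.83) at the bottom, below the type 17 helper list (-2.41), an order that turned without NAC 2 (-2.23 against -3.08). The CD8 lineage list, which holds Cd8a, is left out, and library values carry a pseudocount of 0.5 CPM and lie nearer 0 for low genes.

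Apart from the lists, the 12 largest rises under the naming rule began with Fibcd1, a membrane receptor for acetylated sugars, at 0.288 and 0.247 CPM in control and 25.8 and 23.4 CPM with NAC (log2 6.48 ± 0.28, adjusted p = 1.26e-05). Its control values rest on 5 and 4 reads. Tspoap1, an adaptor of the peripheral benzodiazepine receptor, went from 5.87 and 7.71 to 136 and 194 CPM. Haao, an enzyme of tryptophan breakdown, went from 3.51 and 2.04 to 31.6 and 42.1 CPM. Spock2, an extracellular matrix proteoglycan, went from 2.36 and 1.85 to 19.8 and 32.6 CPM. The other rises of that set were in Adssl1 (log2 3.85), Rcn3 (3.79), Cox6b2 (3.68), Zfr2 (3.64), Igsf23 (3.57) and Tspan9 (3.48). Apart from Tspoap1, all 12 lay at or under 3.51 CPM in both controls.

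The 12 largest falls included Sema6d, a semaphorin, with 275 and 262 reads in control and 1 and 0 with NAC, a ratio of pooled reads of 488 (counting interval 87.3 to 19327). Tal2, a basic helix-loop-helix factor, went from 14.6 and 15 to 0.132 and 0.13 CPM (log2 -6.74 ± 0.35, adjusted p = 2.13e-05). Il1a, an inflammatory cytokine, went from 14.3 and 20.2 to 0.198 and 0.65 CPM. Tead1, a transcription factor of the Hippo pathway, went from 13.8 and 14.1 to 0.198 and 0.78 CPM. Dgkk, a diacylglycerol kinase, went from 30.9 and 33.7 to 1.12 and 1.56 CPM. Pla2g4f, a phospholipase, went from 53.3 and 45.8 to 2.7 and 5.01 CPM. Pdzk1ip1 and Fam120c fell (log2 -4.27 and -4.18). In each of the 12 the NAC values lay at or under 5.01 CPM.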

How the data were processed

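Bulk RNA sequencing libraries were made with a SMARTER kit from total RNA (1.3 µg a library), per the labels' protocols. The authors' read counts per gene, whole numbers in the deposited table, entered the test unchanged. FPKM values, per the file headers, sit beside them; a check found the authors' values to equal the count over length and library total, and they serve here to set genes side by side. GRCm38 and mm10 are the builds in the submitters' processing notes, whereas the aligner and the counter remain not given in the sources used here. Only 2.34% of genes have the start and end of the GRCm38 annotation, so no positions are printed from the table. Receptor gene segments (immunoglobulin, T cell receptor) are left unnamed.

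The test was edgeR 4.0.16 under R 4.3.3 (glmQLFit, robust; filterByExpr; TMM), NAC against control over 4 libraries, two-sided, adjusted by Benjamini-Hochberg over 11734 genes, threshold 0.05. Each SE was computed as the absolute log2 fold change divided by the root of F. The common coefficient of variation was 11.86%. An exact permutation test of 2 against 2 cannot go below p = 0.333, so single values were not tested alone. The script was tested on simulated data.

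The libraries, the 46 gene lists and the naming rule were chosen with earlier results of these data known. The rule took the 12 largest rises and falls among called, non-overlapping genes with at least 10 CPM in the higher group, 7 fixed genes, up to 2 genes per list and direction, and the 6 most abundant calls per direction with a fold of at least 1.5: 177 genes, not all described. Other list members were named after their values were seen. Of 689 list symbols 687 are in the table. The Y box motif and the length-trend refit were also chosen after values were seen. Alternatives were other scalings, filters and tests (DESeq2 1.42.0, limma 3.58.1), the library number as a block, a fold of 1.5 and each library left out. Depth leaves 1 read far below 1 CPM; intervals cover counting error only. Some named genes are not reported here.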

Additional observations from a re-analysis of the deposited data

How the results depend on the processing

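The 5139 calls (2776 higher, 2363 lower) lay between 4563 and 5793 under other scalings, filters and tests. Against a fold of 1.5 there were 1715, 1115 higher and 600 lower. Leaving out each library in turn gave 2595 to 7571 calls, 1496 to 3669 of them higher and 1099 to 3902 lower: 2595 without control 1, 2744 without control 2, 7214 without NAC 1 and 7571 without NAC 2. The lone library left is assumed to vary like the other group, whose spread then sets the test; the NAC libraries differ more from each other than the controls. Of the 5139 calls, 2533 were made again without control 1, 2678 without control 2, 4984 without NAC 1 and 4941 without NAC 2. Upper quartile factors gave 66.5% of calls higher against 54%. Of 174 named genes called, 111 were called in every setting, and 49 lost the call in some setting that left out a library. The reversed one was Gzmb, not called with all libraries (0.03), at -0.25 without NAC 1 and 0.21 without NAC 2.

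Control and NAC libraries share numbers, but with 2 pairs and a correlation of deviations of 0.01995 nothing shows that they are pairs; the number as a replicate block gave 5330 calls, 2856 higher and 2474 lower, and ended that of Cxcr3 among the named genes.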
